A study of Mus musculus with 4 samples.

Results

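The interferon response genes described here are 35 genes, listed by name, that encode transcription factors, RNA sensors and antiviral or antimicrobial proteins of the interferon system. The probes were those whose gene symbol in the authors' deposited table equals a listed name, and the brightest probe stood for a gene. Of the 35 genes 34 were found, and all 34 passed the filter on dim probes, among 26135 genes tested. Ifi27 was dropped because no probe carries that symbol. The 34 genes had 53 probes, and 15 genes had more than 1. The probes that stand for the genes were well above background in both dyes on all 4 arrays, and none was saturated.

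The arrays compared liver RNA of 4 male C57Bl/6 Wrn mutant mice, 3 months old, with that of 4 male C57Bl/6 wild-type mice of the same age. Wrn encodes a RecQ-type DNA helicase. The mutants drank water with 0.4% vitamin C from weaning, and the wild types were untreated. Each two-colour Agilent array carried 1 mutant in Cy5 and 1 wild type in Cy3. Dyes were not swapped. Untreated mutants and treated wild types were not analysed here. The effects of genotype, of vitamin C and of dye thus cannot be told apart in any ratio. The labels name no particular Wrn allele. Each ratio is the log2 of treated mutant over wild type, and ± gives the SD between arrays. An adjusted p is limma's p after Benjamini-Hochberg adjustment over all 26135 genes, with 0.05 as the threshold.

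Interferons are secreted when cells detect foreign or misplaced nucleic acid. RNA sensors such as RIG-I and MDA5 act through IRF3 and IRF7 to switch on interferon genes. Secreted interferon then acts through JAK kinases, and transcription factors that include STAT2 and IRF9 bind the interferon-stimulated response element in the promoters of its target genes. Interferon gamma acts at a different element and induces IRF1 and the large GTPases. In liver, hepatocytes, Kupffer cells and endothelial cells can all respond. In RNA of whole liver, fewer cells of a type and less RNA per cell cannot be told apart.

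Across the array 12.2% of genes passed the test, 6.64% higher (1736 genes) and 5.57% lower (1456 genes) in the mutants. With median centring in place of loess the split was 3418 higher and 1512 lower. Between 82.5% and 96.1% of probes were well above background per channel, and array 1 was the dimmest. The 7 measured hepatocyte markers were well above background in every channel. The probes of Wrn disagreed and gave no check of the labels. The brightest was at 0.00 ± 0.02 (SD, n = 4; limma adjusted p = 0.987), the second at 0.41 ± 0.10 and higher on every array (0.0118 over all probes), and the third at -0.07 ± 0.06 (0.340). Their positions in the gene are not known here.

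Of the 34 interferon response genes 3 passed the test, a share of 8.82% against 12.2% of all genes. Oasl1 and Tgtp1 were higher in the treated mutants (5.88% of members, 6.64% of all genes), and Irf2 was lower (2.94% of members, 5.57% of all genes). The other 31 did not pass. The median of the 34 mean ratios was -0.13, beside 0.01 for all genes tested. The mean ratio was below 0 for 26 of the 34, against 46.9% of all genes, but for 17 of 34 with median centring, where the median was -0.03. An unadjusted p under 0.05 was reached by 11 of the 34 (32.4%), close to the 32.2% of all genes.

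Oasl1, a relative of the 2'-5' oligoadenylate synthetases, had the highest mean ratio. Its log2 ratios were 0.47, 0.44, 0.56 and 0.39 on arrays 1, 2, 3 and 4. Their mean was 0.46 ± 0.07 (SD, n = 4; SE 0.05; limma adjusted p = 0.00942), a 1.38-fold difference. All arrays were high by a similar amount, although the log2 levels of the animals, 11.56 to 12.07 in mutants and 11.01 to 11.68 in wild types, overlapped. OASL1 protein has been described in mice as a brake on the translation of IRF7. Without array 2 limma's adjusted p was 0.0548, and with the pairing of the channels not modelled it was 0.372, in a fit where 0.0918% of all genes passed.

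Oasl2, a related gene of the family, had ratios of 0.22, -0.31, -0.06 and -0.46, with a mean of -0.15 ± 0.30 (limma adjusted p = 0.371). Its array 1 ratio was above 0 and the others were below. The enzymes Oas1a, Oas2 and Oas3 make the second messenger that activates RNase L. Oas1a was at -0.13 ± 0.26, Oas2 at -0.23 ± 0.30 and Oas3 at 0.10 ± 0.03, and none passed. Oas3 was above 0 on every array, at 0.11, 0.10, 0.06 and 0.13 (limma adjusted p = 0.151). Its second probe was below 0 on every array, with a mean of -0.07 ± 0.01, so the sign of Oas3 depends on the probe. The mean log2 level of Oas3 was 8.72 ± 0.37 in mutants and 8.62 ± 0.35 in wild types.

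Irf2, a transcription factor that competes with IRF1 for its binding sites, had the lowest mean ratio. Its ratios on arrays 2, 3 and 4 were -0.58, -0.47 and -0.40, and the spot on array 1 carried an outlier flag and was left out of the fit. The mean was -0.48 ± 0.09 (SD, n = 3; SE 0.06; limma adjusted p = 0.0162), a fold of 0.716. With the flagged spot kept, array 1 gave -0.87 and the mean was -0.58. On the 3 measured arrays the levels did not overlap, with mutants at 11.76 to 11.96 and wild types at 12.23 to 12.39. Irf2 was the 1 member without overlap between the groups, as were 4.21% of all genes in that direction. Of the 26135 genes 26028 were measured on all 4 arrays, where lack of overlap is harder to reach than on 3. No member lacked overlap with the mutants higher, where 3.29% of all genes did. Neither an adjusted p of 0.0568 with Agilent's processed signals (3.1% of all genes passed) nor one of 0.210 without the pairing of channels passed.

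Tgtp1, an interferon gamma-induced GTPase of the IRG family that acts on parasite vacuoles, was measured by a pair of probes that disagreed. On the brighter one the ratios were 0.11, 0.31, 0.25 and 0.27, with a mean of 0.23 ± 0.09 (SD, n = 4; SE 0.05; limma adjusted p = 0.0327). On the dimmer one they were 0.82, -1.07, 0.06 and -0.56, with a mean of -0.19 ± 0.81 (adjusted p = 0.670 over all probes, of which 13% passed). The brighter probe was high on every array, whereas the other swung from well above to well below 0. With the mean of both probes Tgtp1 was at 0.02 (limma adjusted p = 0.919; 10.4% of all genes passed). The call was also lost without any 1 of the arrays (limma adjusted p = 0.0590 to 0.110) and without the pairing of channels (0.912). The levels of the brighter probe were 10.79 ± 0.27 in mutants and 10.56 ± 0.35 in wild types. Tgtp1 has a near-identical neighbour, Tgtp2, and the deposited annotation lists transcripts of both genes for both probes, so the values of Tgtp1 are uncertain.

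The first 30 of the 60 bases of the probes behind these calls, from the authors' deposited table, are shown so that the differing Tgtp1 and Ifih1 probes can be told apart, with the brightest probe as probe 1.
Oasl1 probe: tgtgagaagtcgtgtacagccagacactct
Irf2 probe: atattatgcaaattcccagatctgaagacg
Tgtp1 probe 1: cattaataaccccatgtgctaaccaaaccc
Tgtp1 probe 2: actgcagccaatgatgccatagctcttctg
Ifih1 probe 1: gatctcgggctacataaaattaagaaaact
Ifih1 probe 2: tgctgatgacaccagagaaaatccatttaa

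**Figure D1:**
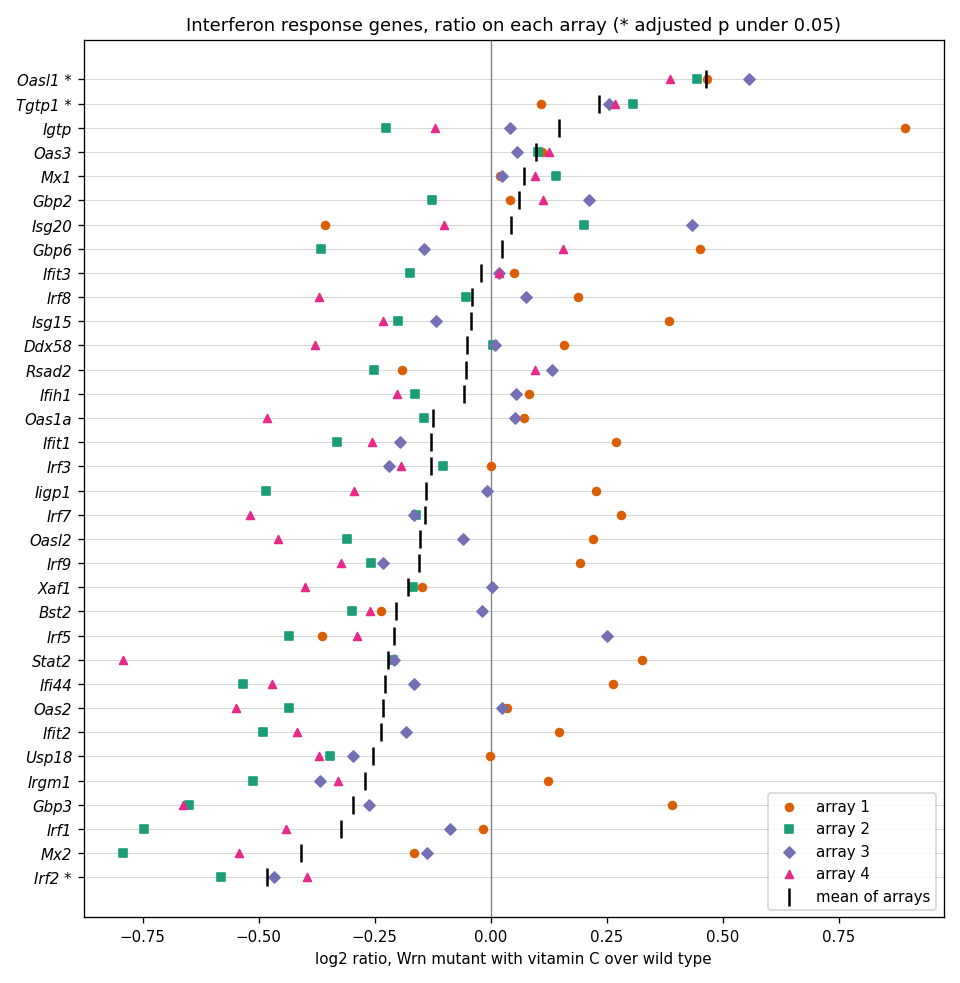
Log2 ratio of treated mutant over wild type (x axis) on each of the 4 arrays for the 34 interferon response genes (y axis, ordered by mean), with 1 symbol per array and a bar at the mean. Asterisks mark an adjusted p under 0.05; array 1 lies to the right of the other arrays for 22 of the 33 genes measured on every array, and the ratios of Oasl1 lie between 0.39 and 0.56.

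The transcription factors of the system had mean ratios from -0.48 to -0.04, below 0 for all 8, but Irf3 and Irf8 turned above 0 with median centring. Irf2 was the 1 of the 8 that passed. Irf1, which interferon gamma induces, was at -0.02, -0.75, -0.09 and -0.44, a mean of -0.32 ± 0.34 (limma adjusted p = 0.119). Its low values were on arrays 2 and 4, and its second probe gave -0.27 ± 0.21. The Irf1 level was 13.17 ± 0.10 in mutants and 13.49 ± 0.27 in wild types.

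Stat2 and Irf9, transcription factors that act in the response to interferon alpha and beta, were at -0.22 ± 0.46 and -0.15 ± 0.23. The Stat2 ratios were 0.33, -0.21, -0.21 and -0.79, the 1 value above 0 being that of array 1 and the lowest that of array 4. Irf7, the amplifier of interferon gene expression, had the same order of extremes at 0.28, -0.16, -0.16 and -0.52. Irf3, activated by phosphorylation rather than by induction, was at -0.13 ± 0.10 with an adjusted p of 0.141. Irf5 and Irf8, which are strongest in myeloid cells, were at -0.21 ± 0.31 and -0.04 ± 0.24. The second probe of Irf8 was above 0, at 0.12 ± 0.14. Irf5 was above 0 on array 3 alone, at 0.25. Without array 3 Irf5 was at -0.36 and passed (limma adjusted p = 0.0330). It did not pass without array 1, 2 or 4 (0.435 to 0.544).

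Neither RNA sensor passed on its brightest probe. Ifih1, the gene of MDA5, was at 0.08, -0.16, 0.05 and -0.20, a mean of -0.06 ± 0.15 (limma adjusted p = 0.568). Its dimmer probe gave a lower value, with a mean of -0.34 ± 0.16, and passed over all probes (adjusted p = 0.0268). Ddx58, the gene of RIG-I, was at -0.05 ± 0.23 (adjusted p = 0.717), and its 3 other probes lay between -0.07 and 0.04.

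The Ifit proteins bind foreign RNA, and ISG15 is a ubiquitin-like protein that USP18 removes from its targets. None of these 5 genes passed. Ifit1 was at 0.27, -0.33, -0.20 and -0.26, a mean of -0.13 ± 0.27, and Ifit2 at -0.24 ± 0.29. Ifit3 was near 0, at -0.02 ± 0.10. Isg15 was at 0.39, -0.20, -0.12 and -0.23, a mean of -0.04 ± 0.29 (limma adjusted p = 0.815). For Isg15, as for Ifit1 and Ifit2, array 1 was the only array above 0. Usp18 was at -0.00, -0.35, -0.30 and -0.37, a mean of -0.25 ± 0.17 (limma adjusted p = 0.0591), and passed without array 1 at -0.34 (adjusted p = 0.0492).

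Among the other antiviral genes, Mx2 came nearest to the threshold. The Mx proteins are dynamin-like GTPases that block viral replication. Mx2 was at -0.16, -0.79, -0.14 and -0.54, a mean of -0.41 ± 0.32 (limma adjusted p = 0.0593), with a level of 9.62 ± 0.25 in mutants and 10.03 ± 0.18 in wild types. Mx1 was at 0.02, 0.14, 0.02 and 0.10, a mean of 0.07 ± 0.06 (adjusted p = 0.314), and its level was 9.23 ± 0.23 in mutants and 9.16 ± 0.22 in wild types. Mx1 and Mx2 thus had means of opposite sign, a difference that was not tested.

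Bst2, or tetherin, which holds budding virus at the cell surface, was at -0.24, -0.30, -0.02 and -0.26, a mean of -0.20 ± 0.13 (limma adjusted p = 0.0641). It was below 0 on every array but turned to 0.19 with median centring. Without array 3 it passed at -0.27 (adjusted p = 0.0458). The exonuclease gene Isg20 was at 0.04 ± 0.35 and Rsad2, the gene of viperin, at -0.05 ± 0.20. The other probes of Rsad2 were above 0, at 0.10 ± 0.16 and 0.04 ± 0.11. Ifi44 was at -0.23 ± 0.36, with array 1 at 0.26, and Xaf1, which encodes an antagonist of the apoptosis inhibitor XIAP, at -0.18 ± 0.17.

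The 7 interferon-inducible GTPases had mean ratios from -0.30 to 0.23, and only Tgtp1 passed. Igtp was at 0.89, -0.22, 0.04 and -0.12, a mean of 0.15 ± 0.51 (limma adjusted p = 0.601). Its mean rested on array 1 and turned to -0.10 without it. The Igtp level was 13.30 ± 0.20 in mutants and 13.15 ± 0.32 in wild types, and the lowest animal was the wild type of array 1 at 12.67. Gbp3 was at 0.39, -0.65, -0.26 and -0.66, a mean of -0.30 ± 0.49 (adjusted p = 0.275), with a level of 10.24 ± 0.14 in mutants and 10.54 ± 0.43 in wild types.

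Irgm1, a regulator of the other IRG proteins, was at 0.12, -0.51, -0.37 and -0.33, a mean of -0.27 ± 0.28 (limma adjusted p = 0.118). Its level was 13.15 ± 0.17 in mutants and 13.42 ± 0.17 in wild types. Without array 1 it passed at -0.40 (adjusted p = 0.0486), but not without array 2, 3 or 4 (0.240 to 0.317). Its other probes gave -0.02 ± 0.18 and 0.08 ± 0.12 over all arrays. Gbp2 was at 0.06 ± 0.14, Gbp6 at 0.02 ± 0.36 and Iigp1 at -0.14 ± 0.31. Gbp6 turned to -0.12 without array 1 and to -0.02 without array 4, and Iigp1 turned to 0.25 with median centring.

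The ratios of many of the 34 genes differed between arrays. On array 1 the ratio was above 0 for 25 of 33 genes, against 51.2% of all genes, and the median was 0.11. On array 2 it was below 0 for 28 of 34 genes (median -0.24) and on array 4 for 26 of 34 (median -0.31). Array 3 lay between, with 16 above and 18 below 0 and a median of -0.01. The median over all genes was between 0.00497 and 0.0256 on each array. A ratio above 0 on array 1 and below 0 on both arrays 2 and 4, a pattern chosen after the values were seen, was shown by 17 of the 33 genes measured on every array and by 7.82% of all genes. They included Isg15, Stat2, Irf7, Irf9, Ifit1, Ifit2, Oasl2, Igtp and Gbp3.

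Array 1 had the highest of the 4 ratios for 22 of the 33 genes (22.1% of all genes). The genes were also spread more widely over arrays than most. The median SD of their ratios was 0.26, beside 0.10 for all genes tested, and 21 of 34 were above the 90th percentile of all genes, which was 0.22. One sign on every measured array was kept by 4 genes above 0 (Oasl1, Tgtp1, Oas3 and Mx1; 23.6% of all genes) and by 5 below 0 (Irf1, Irf2, Mx2, Bst2 and Usp18; 16.8% of all genes).

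Both channels contributed to the pattern. Levels were set against the mean of the 4 animals of the group. Mutant 1 had the highest level of its group for 20 of 33 genes (46.0% of all genes), and mutant 2 the lowest for 20 (19.9% of all genes). Wild type 4 had the highest level of its group for 21 genes (21.3% of all genes), and wild type 1 the lowest for 16 (35.4% of all genes). The median deviation was 0.14 for mutant 1 and -0.15 for mutant 2, and -0.10 for wild type 1 and 0.15 for wild type 4. The SD of levels between animals, which also carries differences between arrays that cancel in a ratio, had a median of 0.172 in mutants and 0.215 in wild types for these genes, beside 0.172 and 0.176 for all genes.

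**Figure D2:**
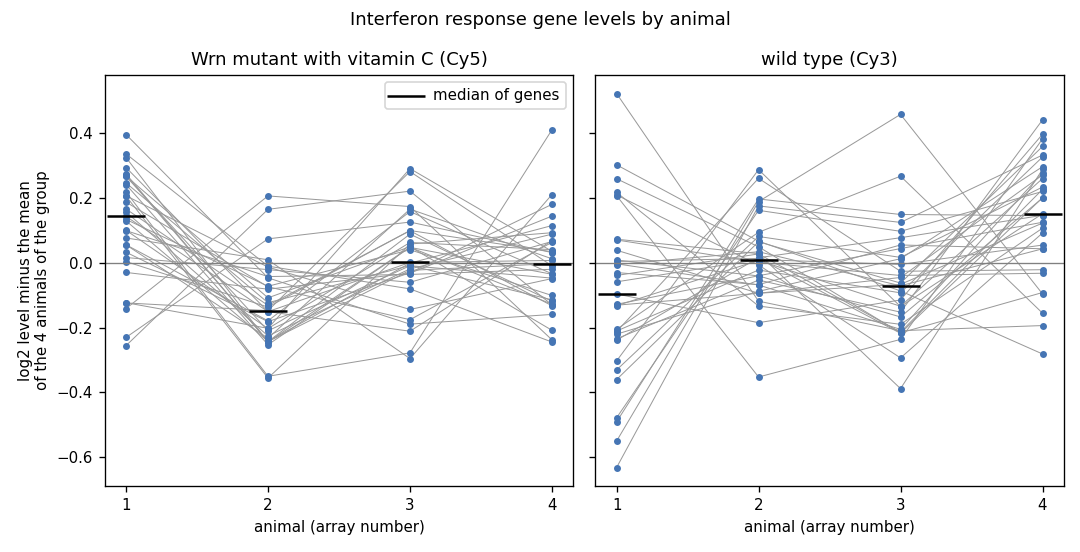
Log2 level of the interferon response genes in each animal minus the mean of the 4 animals of its group (y axis), by animal (x axis), in mutants (left) and wild types (right). Each grey line and its points are 1 of 33 genes and the black bars are medians; mutant 1 (0.14) and wild type 4 (0.15) lie highest and mutant 2 (-0.15) lowest.

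Calls moved with the arrays included. The median of the members was -0.19 without array 1, -0.10 without array 2, -0.13 without array 3 and -0.05 without array 4. Without array 1 Oasl1 was higher, and Irf2, Irgm1 and Usp18 were lower. In that fit 1.92% of all genes passed, 0.807% higher and 1.12% lower, and 20 of 34 members (58.8%) had an unadjusted p under 0.05, against 26.6% of all genes. Without array 2 limma called 0 of 33 genes (5 at an unadjusted p under 0.05, or 15.2%, against 25.7% of all genes), and 0.073% of all genes passed, 0.0384% higher and 0.0346% lower. Without array 3 Oasl1 was higher and Bst2 and Irf5 were lower, where 5.2% of all genes passed, 2.55% higher and 2.65% lower. Without array 4 Oasl1 alone passed, where 1.72% of all genes did, 0.841% higher and 0.884% lower. Irf2, measured on 3 arrays, could not be fitted when array 2, 3 or 4 was left out. Its 3 ratios without array 1 were those of the main fit, so that call was no separate check.

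Markers of resident macrophages also moved between arrays. The median ratio of 12 Kupffer cell and macrophage markers was 0.24, -0.09, 0.24 and -0.43 on arrays 1 to 4. All 12 were above 0 on array 3 (56.3% of all genes) and 11 on array 1 (51.2% of all genes). All 12 were below 0 on array 4, where 55.9% of all genes were above 0. Their mean log2 level ran from 12.24 to 12.58 in mutants and from 12.23 to 12.79 in wild types, where array 4 was highest, and all 12 were well above background in every channel. Over all arrays limma called 0 of the 12, against 12.2% of all genes, and 0 had an unadjusted p under 0.05, against 32.2%. On array 3 these markers were high where the interferon genes were near 0. From highest to lowest, the medians of both lists ranked the arrays 1, 3, 2 and 4, with arrays 1 and 3 nearly equal for the markers. The 8 sinusoidal endothelial cell markers had a median of -0.16, with 2 called lower (25%, against 5.57% of all genes). Their median was -0.12, -0.14, -0.08 and -0.36 on arrays 1 to 4, and all 8 were below 0 on array 4. Of 6 cholangiocyte markers 2 were lower (33.3%, against 5.57% of all genes) and 4 did not pass. Of 7 hepatocyte markers 2 were higher (28.6%, against 6.64% of all genes) and 1 was lower (14.3%, against 5.57%). The hepatocyte median was -0.14, -0.19, -0.04 and 0.37 on arrays 1 to 4, and the median of the mean ratios was -0.03. Shares of lists as short as 6 to 8 genes are coarse. The part of these cell types in the spread of the interferon genes was not tested. The 8 dendritic cell markers had medians between -0.03 and 0.04 on the 4 arrays. Those of the 12 T and NK cell markers lay between -0.07 and 0.10, and those of the 8 B and plasma cell markers between 0.04 and 0.10. The 6 neutrophil markers lay between -0.06 and 0.14 and the 6 stellate cell markers between -0.16 and 0.02. Gzmb of the T and NK list (-0.17, limma adjusted p = 0.0449) and Cd79b of the B list (-0.23, 0.0251) were called lower. They made up 8.33% and 12.5% of their lists, against 5.57% of all genes. No dendritic, neutrophil or stellate cell marker was called.

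**Figure D3:**
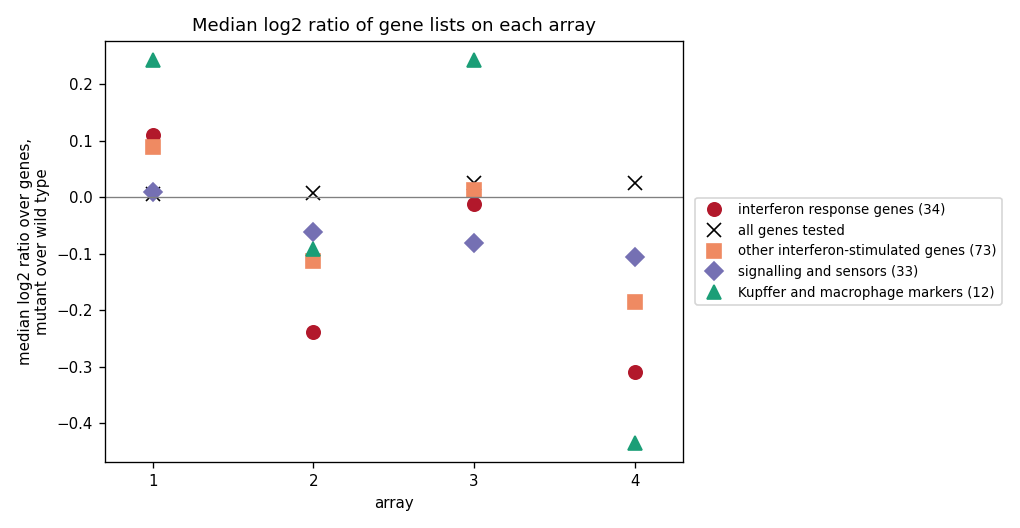
Median log2 ratio over the genes of a list (y axis) on each array (x axis) for the 34 interferon response genes, 73 other interferon-stimulated genes, 33 signalling genes, 12 Kupffer and macrophage markers and all genes tested. The interferon response genes go from 0.11 on array 1 to -0.31 on array 4, and the macrophage markers are at 0.24 on arrays 1 and 3.

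The other genes of the pathway were taken from lists of signalling genes, interferons and further induced genes. Of 33 measured receptors, kinases, sensors and adaptors, 30 did not pass, 2 were higher and 1 was lower, with a median of -0.06. The share that passed was 9.09%, against 12.2% of all genes. The DNA sensor gene Mb21d1, now Cgas, was higher at 0.20 ± 0.04 (limma adjusted p = 0.0331), with a second probe at 0.12 ± 0.13 (0.202 over all probes). Traf3, an adaptor below the sensors, was higher at 0.20 ± 0.09 (0.0484). The kinase gene Jak1 was lower at -0.29 ± 0.15 (0.0347), but its other probes gave -0.01 and 0.03, and averaging the probes gave -0.09 (0.171). Of 11 measured interferon genes Ifna5 was higher at 0.23 ± 0.12 (0.0471) and 10 did not pass, with a median of -0.02 and a share of 9.09% that passed. The interferon alpha genes are close relatives and their probes can cross-hybridise.

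Of 73 other interferon-stimulated genes 67 did not pass, 2 were higher and 4 were lower, with a median of -0.05. The share that passed was 8.22% (2.74% higher and 5.48% lower), against 12.2% of all genes (6.64% and 5.57%). Tap1, a peptide transporter of antigen presentation, was higher at 0.25 ± 0.12 (limma adjusted p = 0.0400) and the aminopeptidase gene Lap3 at 0.24 ± 0.13 (0.0465), in the same direction on its 3 probes. Daxx was lower at -0.33 ± 0.08 (0.0166), Lgals3bp at -0.24 ± 0.11 (0.0397) and Psme1, a proteasome activator subunit, at -0.20 ± 0.07 (0.0398). Lgals3bp and Psme1 turned to 0.02 and 0.16 with median centring. Samhd1, a nucleotide triphosphatase that restricts viruses, was lower at -0.36 ± 0.18 (0.0307), but its second probe gave 0.22 ± 0.17 and the mean of both was -0.07 (0.512). The median of this list by array was 0.09, -0.11, 0.01 and -0.19, the same order of arrays as in the 34 genes. When 1 array at a time was left out, Daxx still passed without array 1 or 3, Samhd1 without array 1 and Jak1 without array 3, and the other 7 genes named from these lists passed in none of the 4 fits.

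**Figure D4:**
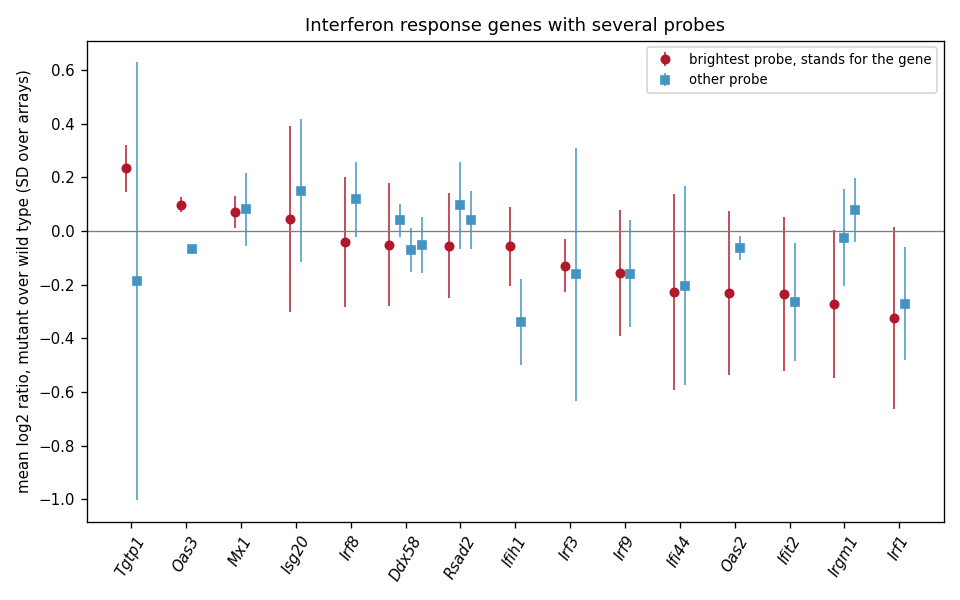
Mean log2 ratio of each kept probe with its SD over arrays (y axis) for the 15 interferon response genes with more than 1 probe (x axis). Circles are the brightest probes, which stand for the genes, and squares the others; the probes of Tgtp1 lie at 0.23 and -0.19 and those of Ifih1 at -0.06 and -0.34.

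The promoters were searched for the elements through which interferons act. The windows, 250 bases before to 50 after the gene start, came from RefSeq (GRCm38.p6), and 28 of the 34 genes had one. Those without were Usp18, Oas2, Mx1, Mx2, Gbp6 and Iigp1. The core of the interferon-stimulated response element, GAAA followed by any 2 bases and a further GAAA, was searched on both strands. It was found for 16 of 28 genes (57.1%), against 3.99% of all 27025 genes with a window. The gamma-activated sequence TTCNNNGAA, which reads the same on both strands, was found for 9 of 28 (32.1%), against 9.55%. A match of 1 motif can overlap one of the other. The median ratio was -0.06 for the 16 genes with the first core and -0.15 for the 12 without. For the gamma-activated sequence it was -0.125 for the 9 genes with a match and -0.129 for those without. Neither difference was tested. A match here describes letters only.

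The promoters of the 3 genes that passed are printed, with those of Isg15 and Ifit1, whose ratios swung between arrays. Capitals mark matches to either motif.
Oasl1, chr5:114922990-114923289, plus strand: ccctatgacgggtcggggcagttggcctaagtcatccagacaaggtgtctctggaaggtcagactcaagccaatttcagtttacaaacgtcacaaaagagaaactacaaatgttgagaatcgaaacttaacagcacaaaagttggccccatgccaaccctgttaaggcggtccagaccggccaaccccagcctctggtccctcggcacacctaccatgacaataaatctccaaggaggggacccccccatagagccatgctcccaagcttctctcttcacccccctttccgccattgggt
Irf2, chr8:46739495-46739794, plus strand: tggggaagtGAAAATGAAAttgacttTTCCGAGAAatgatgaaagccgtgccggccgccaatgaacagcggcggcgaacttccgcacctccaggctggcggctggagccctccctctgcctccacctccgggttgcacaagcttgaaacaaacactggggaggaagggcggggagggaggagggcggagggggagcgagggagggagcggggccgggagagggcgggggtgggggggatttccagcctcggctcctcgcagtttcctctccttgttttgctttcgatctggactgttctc
Tgtp1, chr11:48992197-48992496, minus strand: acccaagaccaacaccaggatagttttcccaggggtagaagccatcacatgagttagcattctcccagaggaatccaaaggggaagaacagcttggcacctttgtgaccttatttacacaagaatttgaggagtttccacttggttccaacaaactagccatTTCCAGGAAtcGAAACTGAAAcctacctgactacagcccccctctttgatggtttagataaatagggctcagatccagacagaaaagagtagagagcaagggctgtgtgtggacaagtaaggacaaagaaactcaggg
Isg15, chr4:156200769-156201068, minus strand: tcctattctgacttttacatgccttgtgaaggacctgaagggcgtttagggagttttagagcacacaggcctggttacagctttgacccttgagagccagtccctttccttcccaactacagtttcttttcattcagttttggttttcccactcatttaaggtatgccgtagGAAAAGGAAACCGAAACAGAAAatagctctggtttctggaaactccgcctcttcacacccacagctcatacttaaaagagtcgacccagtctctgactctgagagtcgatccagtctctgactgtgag
Ifit1, chr19:34640639-34640938, plus strand: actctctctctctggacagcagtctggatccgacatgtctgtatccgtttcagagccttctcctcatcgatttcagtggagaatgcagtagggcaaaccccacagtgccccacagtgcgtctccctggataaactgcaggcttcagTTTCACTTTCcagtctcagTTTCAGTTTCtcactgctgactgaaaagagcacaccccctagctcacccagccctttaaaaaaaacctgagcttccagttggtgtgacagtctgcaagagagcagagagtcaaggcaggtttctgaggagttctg

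Isg15 held 3 overlapping copies of the core, beginning 78, 72 and 66 bases before the start, and Ifit1 held 2, at 104 and 85. Tgtp1 held the core at 77 bases beside a gamma-activated sequence at 88. Irf2 held a core at 241 and a gamma-activated sequence at 224. In the Oasl1 window neither set of letters was found. Like Isg15 and Ifit1, other members were above 0 on array 1 and below 0 on arrays 2 and 4. Of these, Gbp3, Ifih1, Igtp, Irgm1, Oas1a and Stat2 held the core. Ifi44, Ifit2, Irf3, Irf7, Irf8, Irf9 and Oasl2 did not, and Iigp1 and Oas2 had no window.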

How the data were processed

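Liver RNA of 4 treated Wrn mutants (Cy5) and 4 wild types (Cy3) was hybridised on 4 Agilent two-colour arrays of 1 slide. Per the file headers, the authors extracted spot intensity with Feature Extraction 10.5.1.1. The deposited log10 ratios, Agilent's own, were not used as the main values. The authors' deposited table holds log2 ratios, with p-value columns and a score from their own comparison. It supplied symbols, and its ratios lay within an r of 0.999988 or more of background-subtracted loess values.

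Median intensities were corrected by normexp (offset 50) and loess in limma 3.58.1. Control spots and outlier-flagged spots were left out. A probe was kept if well above background in 1 dye on at least 3 arrays. The brightest kept probe stood for a gene. limma's moderated test (lmFit, eBayes) set the mean log2 ratio against 0, and p was adjusted by Benjamini-Hochberg. Levels came from loess and Aquantile values and are open to dye bias. The pairing of channels comes from the shared array, and the labels call the animals biological replicates. The number of arrays limits the precision. The fit was tested on simulated data with 50 changed genes at each fold. It recovered 0 of 50 at 1.15-fold, 58% at 1.32-fold, 68% at 1.5-fold and 90% at 2-fold, and 1.82% of calls were false. That run made 110 calls, whereas the main fit of the arrays made 3192, with Mb21d1 among them at 1.145-fold. The shares recovered and false in that run thus need not hold for the arrays, which was not tested. The members also varied more between arrays, with a median SD of 0.26 beside 0.10 for all genes tested. A member that did not pass may thus still differ, and not only by a small amount. Mx2, for example, did not pass at a mean of -0.41.

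The members and lists were chosen with earlier results of these data known. The genes named were those that passed, the 5 highest and 5 lowest members, up to 6 list genes in each direction, and probes that differed in sign or call.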

Additional observations from a re-analysis of the deposited data

Results flagged for a closer look

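Ifit3 had 1 array far from the others. Its log2 ratio was -0.17 on array 2, beside 0.02, 0.02 and 0.05 on the other arrays, and the gap was 0.852 of the whole range. Chance flags about 1 in 20 such groups, and this was 1 of 33 members tested.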

How the results depend on the processing

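The 3192 genes called became 811 with Agilent's processed signals, 4930 with median centring, 24 with the pairing of channels not modelled (no replicate block), 91 at an adjusted p under 0.01, and 19 to 1354 with 1 array left out. The 2 interferon response genes higher in the mutants became 1 with Agilent's signals, 1 with the mean of probes, 0 with no replicate block (5 members, 14.7%, at an unadjusted p under 0.05, against 9.55% of all genes), 1 at 0.01, and 0 to 1 with 1 array left out. The 1 lower gene became 0 with Agilent's signals, 0 with no replicate block, 0 at 0.01, and 0 to 3 with 1 array left out. The median of the members, -0.13, ran from -0.19 to -0.05 with 1 array left out and was -0.03 with median centring. Each lay within its spread of 0.195 between arrays. Fits that share most arrays can hardly leave that spread, so this is no check of stability. Median centring also left 17 of 34 members below 0, where the main fit had 26. Signs turned with median centring for Irf3 (0.10), Irf8 (0.0123), Ifih1 (0.0383), Ddx58 (0.0243), Ifit3 (0.0532), Isg15 (0.0226), Rsad2 (0.00056), Bst2 (0.19), Iigp1 (0.25), Lgals3bp (0.0230) and Psme1 (0.16). They turned with Agilent's signals for Ddx58 (0.0180) and Ifit3 (0.0011), with the mean of probes for Irf8 (0.0385) and Rsad2 (0.0269), and with array weights for Isg20 (-0.0048). With 1 array left out the values ran from -0.12 to 0.0702 for Irf8, -0.12 to 0.0577 for Ddx58, -0.0457 to 0.0293 for Ifit3, -0.18 to 0.0223 for Isg15, -0.0856 to 0.18 for Isg20, -0.12 to 0.0118 for Rsad2, -0.12 to 0.16 for Gbp6 and -0.10 to 0.27 for Igtp. The cause was not tested. Of 609 alternative values of the members 567 kept direction and side of the threshold. That count is no measure of how stable the calls were. In the main fit 31 of the 34 members did not pass, so staying uncalled counted as kept, and some settings leave the ratio unchanged. The 13 values that lost a call all belonged to Tgtp1, Irf2 and Oasl1. Irf2 had no value without array 2, 3 or 4.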

Other observations

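Ifi27l1, an older symbol of Ifi27 in the RefSeq table and outside the rule for members, had ratios of 0.06, 0.06, 0.13 and 0.36. Its mean was 0.15 ± 0.14 (SD, n = 4; limma adjusted p = 0.144).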
